A study of Mus musculus with 20 samples.

Results

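The genes described here are 8 members of the major urinary protein (Mup) cluster of the mouse, Mup3, Mup7, Mup15, Mup16, Mup17, Mup19, Mup20 and Mup21, of 38924 genes in the liver expression table. They were chosen by their lower level on the disease diet in an earlier reading of these same libraries, so the diet differences below are descriptions and carry no test. Male mice of 2 stocks bought at 5 weeks of age were compared after 1 week of acclimation and 12 weeks on diet, with 5 mice in each of 4 groups. NDWT and HFWT are wild-type C57BL/6J mice on a control diet and on CDAHFD, a high-fat diet without choline, built on free amino acids, that brings on steatohepatitis. NDKO and HFKO are mice of the TSP-1 knockout stock on the same diets. TSP-1, or thrombospondin-1, is a secreted matrix protein encoded by Thbs1. The knockout carries its change in every cell of the body, and the stocks were bought separately, so genotype and stock cannot be told apart. The comparisons ask how the diet and the genotype changed the liver transcriptome.

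Major urinary proteins are small secreted lipocalins, folded as a barrel with a pocket that holds volatile ligands. In the male mouse the liver makes them in bulk for release into urine, where they carry and prolong scent signals. Their transcription in liver is known to depend on pulses of growth hormone acting through STAT5, and on androgen, thyroid hormone and glucocorticoids. Mup20, also called darcin, is a male pheromone in its own right.

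All 8 genes lie on the minus strand of chromosome 4 (GRCm38). From the lower to the higher coordinate they are Mup7 (60066469 to 60070475), Mup15 (61435790 to 61439743), Mup16 (61515592 to 61519531), Mup17 (61591929 to 61595871), Mup19 (61778324 to 61782269), Mup20 (62050234 to 62054158), Mup3 (62083476 to 62087342) and Mup21 (62147932 to 62150863). Each is annotated as protein coding, with a coding sequence of 543 bases in Mup7, Mup15, Mup16, Mup17 and Mup19, of 546 bases in Mup20 and Mup21 and of 555 bases in Mup3.

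The coding sequences fall into 3 sets, which matters for how far a read can be given to a single gene. Mup7, Mup15, Mup16, Mup17 and Mup19, the central set, were 98.5% to 99.8% identical to one another. They were 90.1% to 91.0% identical to Mup20 and 82.2% to 84.6% identical to Mup3 and Mup21. Mup3 and Mup21 were 94.8% identical to each other, and Mup20 was 86.7% identical to Mup3 and 87.5% to Mup21. The 60 coding bases of exon 2 that follow show the sets, with capitals at the bases that differ from Mup17. The sequences are those of the GENCODE M21 transcripts (GRCm38), read along the minus strand.
Mup7: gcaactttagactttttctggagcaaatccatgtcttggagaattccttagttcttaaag
Mup15: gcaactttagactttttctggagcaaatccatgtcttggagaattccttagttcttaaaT
Mup16: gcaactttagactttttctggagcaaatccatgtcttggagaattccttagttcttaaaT
Mup17: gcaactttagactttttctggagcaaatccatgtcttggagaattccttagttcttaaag
Mup19: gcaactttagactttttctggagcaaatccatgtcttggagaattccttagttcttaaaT
Mup20: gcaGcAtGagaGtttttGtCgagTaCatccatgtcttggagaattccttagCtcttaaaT
Mup3: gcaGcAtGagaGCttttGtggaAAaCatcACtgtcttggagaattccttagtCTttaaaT
Mup21: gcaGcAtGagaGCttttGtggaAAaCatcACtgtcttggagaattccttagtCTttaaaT
Within this window Mup7 and Mup17 were the same, Mup15, Mup16 and Mup19 differed from Mup17 at 1 base, Mup20 at 10 bases, and Mup3 and Mup21 at 14 bases each.

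Over whole transcripts, the share of 150-base stretches found in no other gene of the annotation was 100% for Mup3 and Mup21, 68.9% for Mup20 and 59.6% for Mup17. It was 32.9% for Mup7, 24.2% for Mup16, 9.28% for Mup15 and 0.765% for Mup19. The reads were pairs of 150 bases. If reads that matched several genes were dropped, values of Mup15, Mup16 and Mup19, and in part of Mup7, rest on the few stretches that set each apart. How the counting treated such reads is not given in the sources used here. Values of Mup3, Mup21 and Mup20 are the most firmly tied to 1 gene.

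A RefSeq promoter (GRCm38.p6) was at hand for 6 of the 8 genes. The 100 bases that end at the TATA sequence, in capitals, are shown for 5 of them because members of more than 1 sequence set had lower levels on CDAHFD. They lie at chr4:61439723-61439822 for Mup15, chr4:61595851-61595950 for Mup17, chr4:61782249-61782348 for Mup19, chr4:62087322-62087421 for Mup3 and chr4:62150843-62150942 for Mup21, all on the minus strand.
Mup15: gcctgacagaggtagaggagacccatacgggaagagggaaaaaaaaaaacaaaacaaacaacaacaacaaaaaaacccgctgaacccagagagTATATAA
Mup17: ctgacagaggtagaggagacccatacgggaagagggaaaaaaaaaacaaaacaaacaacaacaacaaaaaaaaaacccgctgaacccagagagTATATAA
Mup19: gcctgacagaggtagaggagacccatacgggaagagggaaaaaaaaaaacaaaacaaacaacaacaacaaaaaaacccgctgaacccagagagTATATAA
Mup3: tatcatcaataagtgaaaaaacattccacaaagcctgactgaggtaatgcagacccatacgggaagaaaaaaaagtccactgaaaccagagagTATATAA
Mup21: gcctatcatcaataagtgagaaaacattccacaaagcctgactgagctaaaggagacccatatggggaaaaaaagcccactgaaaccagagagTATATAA
Up to and including this TATA sequence, over 157 or 158 aligned bases, Mup15 and Mup19 were 100% identical, Mup15 and Mup17 97.5%, Mup3 and Mup21 91.1%, and pairs across these sets 67.5% to 69.4%. The A-rich run before the TATA sequence is longer in Mup15, Mup17 and Mup19 than in Mup3 and Mup21. TATATAA, searched on both strands after the sequences had been seen, was in 5 of the 6 promoters and in 3.24% of 32851 promoter windows of 300 bases. Of the other motifs searched on both strands, TTCNNNGAA (STAT5) was in 0 of the 6 and in 8.3% of all windows, TTGCNNAA (C/EBP) in 0 and 10.8%, TATAAA in 0 and 13.62%, and the HNF1 motif in 0 and 0.4%. AGAACA, part of the site of the glucocorticoid receptor, was in Mup3 and Mup21 and in 18.97% of all windows.

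The libraries held 15641545 to 23276325 fragments assigned to genes. In the 20 livers the hepatocyte markers summed to between 44900 and 72090 FPKM (assigned fragments per kilobase of gene, scaled to the library total), with 0 of 16 markers absent in any library. Thbs1 went against the genotype label on the control diet. Its FPKM was 0.170, 0.326, 0.268, 0.058 and 0.165 in NDWT and 1.00, 1.5, 0.986, 1.90 and 1.13 in NDKO. It was 3.46 to 6.10 in HFWT and 3.05 to 4.40 in HFKO. The groups did not overlap on the control diet and Thbs1 was higher in NDKO (log2FC 2.28, limma FDR 1.02e-05), whereas they overlapped on CDAHFD. A value per gene does not show which exons the reads came from, so the libraries are called "labelled TSP-1 null" where a direction is drawn between genotypes.

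On the control diet Mup3 and Mup20 were among the most abundant transcripts of the liver. Mup3 ranked 9 and Mup20 ranked 12 of 38924 genes by mean FPKM in NDWT, and 8 and 11 in NDKO. Together the members took 1.35% ± 0.107 (SD, n = 5) of all assigned fragments in NDWT and 1.30% ± 0.141 in NDKO. On CDAHFD that share was 0.370% ± 0.0997 in HFWT and 0.234% ± 0.0872 in HFKO.

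The summed FPKM of the 8 genes was 12567, 14535, 11995, 13995 and 14313 in replicates 1 to 5 of NDWT, and 4661, 3044, 5398, 3646 and 2932 in HFWT. In the libraries labelled TSP-1 null it was 11389, 12714, 12490, 13907 and 15040 on the control diet, and 2581, 3828, 2296, 1236 and 2425 on CDAHFD. Every CDAHFD library lay below every control library in both genotypes. The mean in HFWT was 29.2% of that in NDWT, and the mean in HFKO was 18.9% of that in NDKO. On the log2(FPKM + 0.1) scale the sum was lower by 1.81 in wild-type mice (log2FC −1.81) and by 2.49 in the others (log2FC −2.49), while the median of all 14524 tested genes was higher by 0.53 and 0.50. Scaling the libraries so that this median lies near 0 moved the 2 values to −2.37 and −3.02. The tissue is bulk liver, in which fewer cells of a type and less RNA per cell cannot be told apart.

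The make-up of the sum also differed between diets. Its parts are genes with unlike shares of unique sequence, so their sizes can depend on how shared reads were counted. Mup20 was 33.3% ± 3.55 of the summed FPKM in NDWT and 37.6% ± 5.00 in NDKO, against 86.6% ± 1.89 in HFWT and 84.0% ± 1.17 in HFKO. Mup3 was the larger part in NDWT, at 41.6% to 50.7%, and was 10.2% to 16.2% across the 10 CDAHFD libraries. Mup7 was 12.2% to 18.8% of the sum across the control libraries and at most 0.545% on CDAHFD. Without Mup20, a sum added after the values were seen, the log2FC with diet was −4.14 in wild-type mice and −4.45 in those labelled TSP-1 null.

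**Figure D1:**
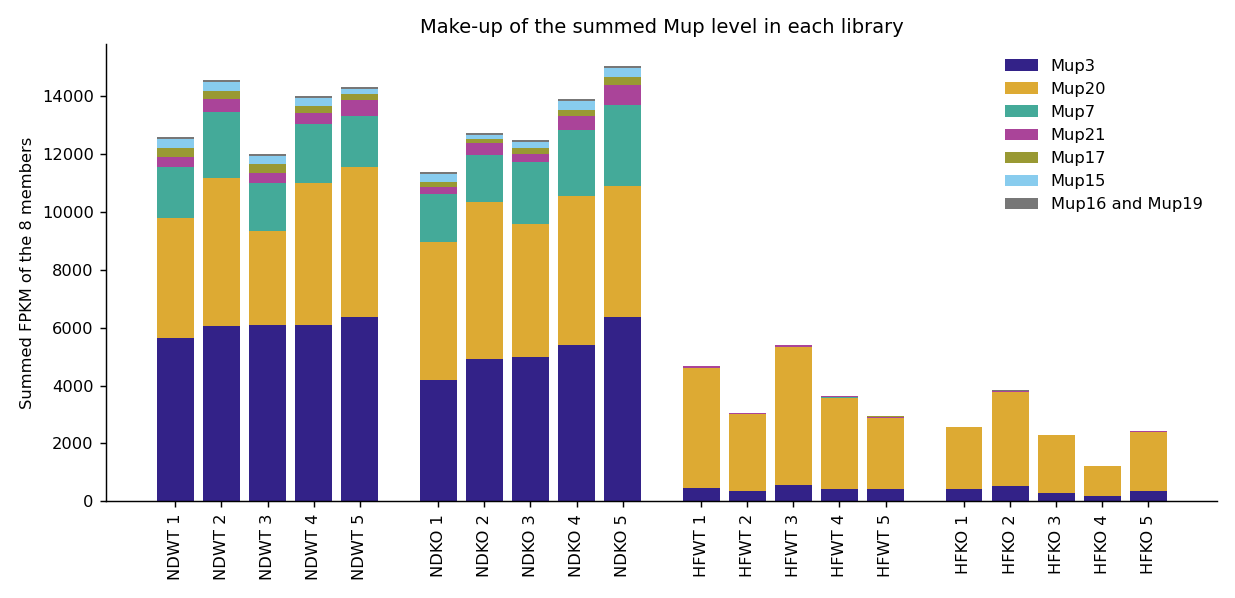
Stacked bars show the summed FPKM of the 8 Mup genes in each of the 20 libraries, split by gene. Control libraries hold large Mup3, Mup20 and Mup7 parts and sum to 11389 to 15040, whereas CDAHFD libraries sum to 1236 to 5398 and are mostly Mup20.

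Mup20, the pheromone darcin, had the smallest difference between diets of the 8 members in both genotypes. Its FPKM was 4168, 5101, 3271, 4905 and 5163 in NDWT and 4114, 2647, 4760, 3140 and 2453 in HFWT, with means of 4522 ± 804 and 3423 ± 986. These groups overlapped, since replicates 1 and 3 of HFWT lay above replicate 3 of NDWT. In the libraries labelled TSP-1 null Mup20 was 4753, 5411, 4595, 5136 and 4516 on the control diet and 2134, 3217, 1972, 1037 and 2026 on CDAHFD, with no overlap. The diet ratio of means was 75.7% in wild-type mice (log2FC −0.43, SE 0.23) and 42.5% in the others (log2FC −1.32, SE 0.23). Among all genes Mup20 ranked 12 in both NDWT and HFWT, and 11 in NDKO against 23 in HFKO. Its wild-type log2FC ran from −0.99 with median of ratios scaling to −0.02 with quantile normalization, so the size of its diet difference in those mice depends on the scaling.

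Mup3 had the steadiest level of all members in NDWT. Its FPKM was 5631, 6048, 6079, 6096 and 6378 in NDWT and 473, 362, 562, 439 and 414 in HFWT. The other stock gave 4204, 4929, 4977, 5407 and 6356 in NDKO, and 419, 543, 302, 194 and 359 in HFKO. No CDAHFD library reached the lowest control library in either genotype. Means on CDAHFD were 7.45% and 7.02% of those on the control diet (log2FC −3.76 and −3.90, SE 0.19).

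Mup21, the closest relative of Mup3, lies next to it at the high-coordinate end. It read 346, 447, 358, 381 and 568 FPKM in NDWT and 65.9, 30.6, 62.2, 52.2 and 53.6 in HFWT. In the libraries labelled TSP-1 null it read 232, 416, 277, 470 and 693 on the control diet and 19.8, 42.6, 20.6, 5.53 and 29.3 on CDAHFD. The diet groups did not overlap, and the CDAHFD means were 12.6% and 5.64% of the control means (log2FC −3.01 and −4.30, SE 0.40). Replicate 4 of HFKO was the lowest of all 20 libraries.

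Among the central set, Mup7 had the highest FPKM on the control diet, a rank that can depend on how shared reads were counted. Its FPKM was 1732, 2286, 1629, 2027 and 1750 in NDWT, and 5.83, 2.98, 10.2, 12.1 and 9.24 in HFWT. It was 1650, 1622, 2151, 2292 and 2821 in NDKO, and 6.23, 20.9, 1.51, 0.098 and 9.45 in HFKO. The HFKO values spread widely, from 2 fragments in replicate 4 to 337 in replicate 2. The ratio of the control mean to the CDAHFD mean was 233 in wild-type mice and 276 in the others (log2FC −7.99 and −9.28, SE 0.80). Without replicate 2 of HFKO the second ratio was 488, and with single libraries left out the log2FC of Mup7 in the mice labelled TSP-1 null ran from −9.94 to −8.26.

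Mup17 had FPKM of 335, 282, 315, 248 and 194 in NDWT, and 0.842, 0.401, 1.54, 1.03 and 1.19 in HFWT. In NDKO it was 192, 127, 191, 203 and 261, and in HFKO it was 0.342, 1.45, 0.120, 0 and 0.509. On CDAHFD these are 7 to 29 fragments per HFWT library (17.6 ± 8.05) and 0 to 21 per HFKO library (7.8 ± 8.23). Counting error is part of the spread there, but the spread was wider than counting error alone would give. The control mean was 275 times the CDAHFD mean in wild-type mice and 402 times in the others, or 802 times without replicate 2 of HFKO.

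The remaining 3 central genes were at the edge of detection on CDAHFD. Mup15 ranged from 197 to 314 FPKM in NDWT and from 162 to 308 in NDKO, against 0.054 to 1.28 in HFWT and 0 to 1.59 in HFKO. Mup16 ranged from 27.5 to 47.2 in NDWT and 30.5 to 72.9 in NDKO, against 0.256 to 1.07 in HFWT and 0.146 to 0.739 in HFKO. Mup19 ranged from 12.4 to 38.3 in NDWT and 15.2 to 28.004 in NDKO, against 0.050 to 0.565 in HFWT and 0 to 0.541 in HFKO. Replicates 3 and 4 of HFKO held 0 fragments of both Mup15 and Mup19, and 3 fragments allow 0.152 to 0.167 FPKM for a gene of 1 kb in those libraries. Fitted differences of these genes depend on the constant added before taking logs. With 1 in place of 0.1 the wild-type log2FC of Mup15 moved from −8.93 to −7.41, that of Mup16 from −5.89 to −4.63 and that of Mup19 from −5.99 to −4.25.

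**Figure D2:**
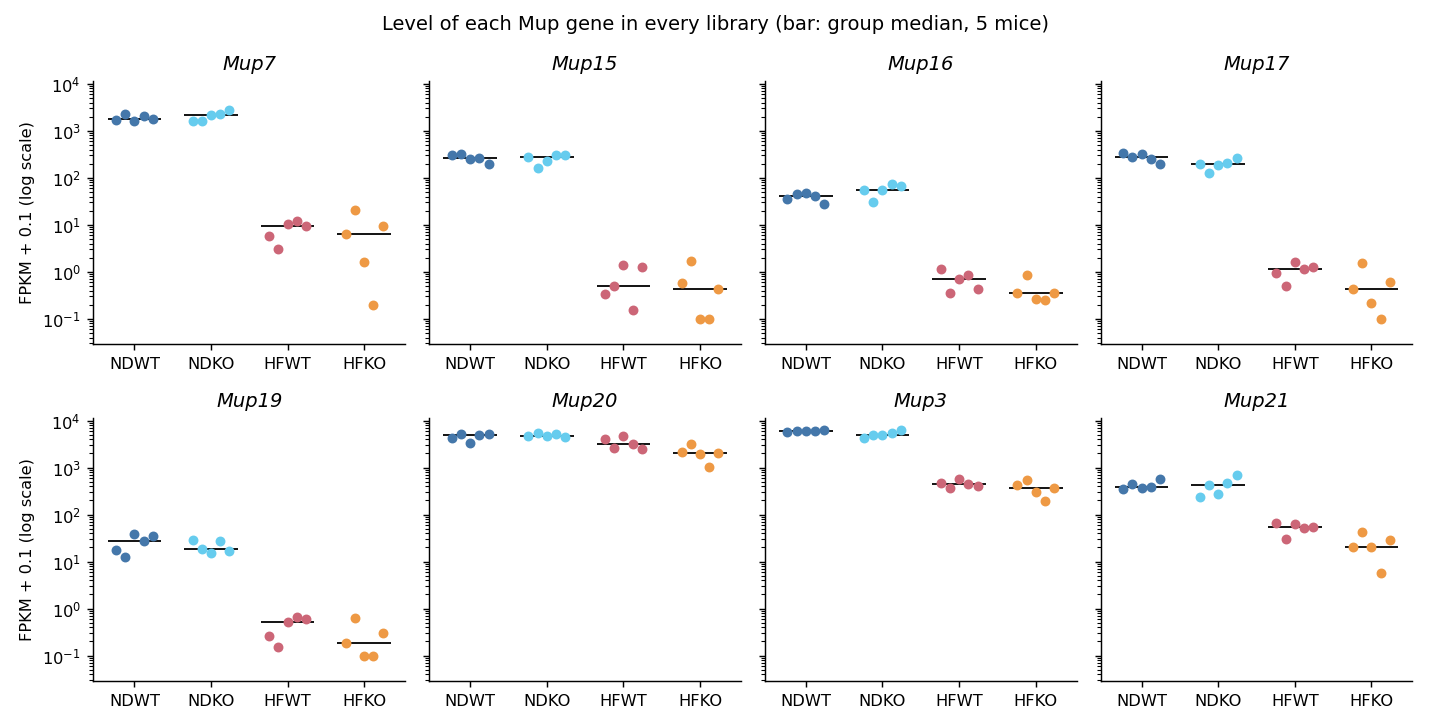
Each point is 1 library, plotted as FPKM + 0.1 on a log axis for each of the 8 genes, with the 4 groups side by side and a bar at the group median of 5 mice. Control and CDAHFD points are apart in every panel except Mup20, where HFWT values of 2453 to 4760 reach into the NDWT range of 3271 to 5163.

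The order of the levels differed between diets. Orders within the central set can also depend on how shared reads were counted. In NDWT, Mup3, Mup20, Mup7 and Mup21 followed one another without overlap, Mup17 and Mup15 overlapped each other below them, and Mup16 and Mup19 overlapped each other at the bottom. In NDKO Mup3 and Mup20 overlapped, and Mup21 overlapped Mup15 and Mup17. In HFWT the order was Mup20, Mup3, Mup21 and Mup7 without overlap, and the ranges of Mup17, Mup15, Mup16 and Mup19 overlapped near 1 FPKM or below.

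As a count, 7 of 8 members in wild-type mice and 8 of 8 in those labelled TSP-1 null had every CDAHFD library below every control library. Over all tested genes 5.7% and 5.03% did so. The members were chosen by this difference, so nothing is read from the contrast between these shares.

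The family has other genes beside the 8 members. The table holds 35 further rows named Mup, of which 13 are protein coding and 22 pseudogenes, and 24 had more than 3 fragments in some library. In 17 of these 24 every HFWT library lay below every NDWT library, and in 15 every HFKO library lay below every NDKO library. Over all tested genes 5.7% and 5.03% did so. These rows share sequence with members chosen by this difference, so nothing is read from the contrast between the shares. Together the 35 rows took 0.0482% of assigned fragments in NDWT and 0.0513% in NDKO, against 0.00503% in HFWT and 0.00383% in HFKO. Since they share sequence with the members, some of these fragments could belong to either.

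The most abundant other coding gene was Mup11, at 146 ± 28.03 FPKM in NDWT and 2.77 ± 1.12 in HFWT. Mup14 was 69.5 ± 6.55 and 3.23 ± 1.26, and Mup10 was 45.2 ± 4.74 and 13.5 ± 3.81. The pseudogene Mup-ps19 was at 22.0 ± 8.61 FPKM in HFWT against 30.1 ± 7.11 in NDWT, and these groups overlapped. In the libraries labelled TSP-1 null it was at 15.5 ± 7.86 on CDAHFD against 33.0 ± 2.39 on the control diet, without overlap. Mup6 was at 0.401 ± 0.121 in NDWT and 0.405 ± 0.184 in HFWT, and these groups also overlapped. Mup5 was detected with at most 5 fragments in a library.

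The rest of these 24 rows were below the level of Mup10 in NDWT. Those that are protein coding are Mup12 (24.4 FPKM in NDWT and 1.021 in HFWT), Mup1 (10.5 and 0.593), Mup18 (8.26 and 0.525), Mup2 (5.61 and 1.57), Mup9 (2.91 and 0.0468), Mup8 (1.77 and 0.0946) and Mup13 (0.644 and 0.0202). The pseudogenes Mup-ps13, Mup-ps16, Mup-ps20, Mup-ps14, Mup-ps12, Mup-ps7, Mup-ps8, Mup-ps6, Mup-ps15, Mup-ps2 and Mup-ps4 had means of 0.110 to 11.01 FPKM in NDWT and 0 to 4.56 in HFWT.

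**Figure D3:**
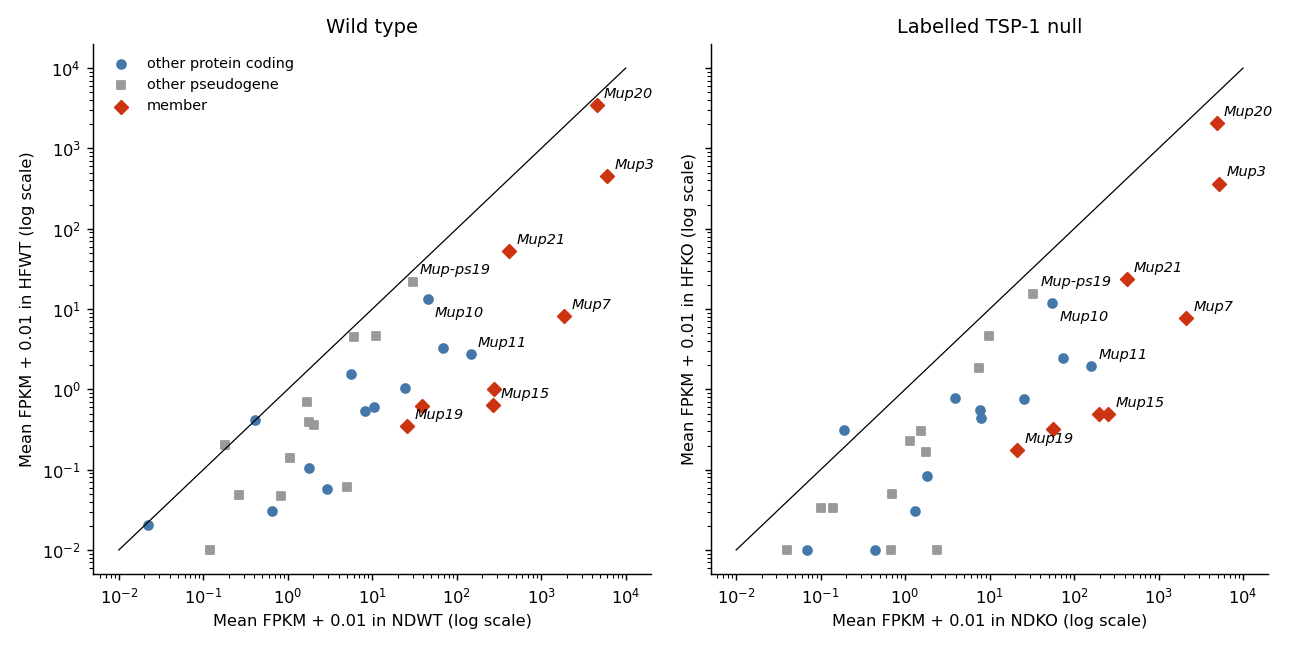
Mean FPKM + 0.01 on CDAHFD is plotted against that on the control diet, both on log axes, for the 8 members (diamonds) and the 24 other rows named Mup with more than 3 fragments (circles, protein coding; squares, pseudogenes), with wild-type mice on the left and those labelled TSP-1 null on the right. Points below the line of equal levels are lower on CDAHFD. In wild-type mice Mup20, Mup6 and the pseudogene Mup-ps19 lie close to the line, as do Mup-ps16, Mup-ps2 and Mup5. In the same mice 6 of the 8 members lie more than 10-fold below the line.

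No member passed the test between genotypes on either diet. On the control diet 0 of 8 were called (limma FDR under 0.05 and absolute log2FC above 0.58), with 0 at an unadjusted p under 0.05, against 4.77% of all genes. Their log2FC ran from −0.51 for Mup17 to 0.50 for Mup16 and FDR from 0.361 to 0.947. The summed level averaged 13481 ± 1130 in NDWT and 13108 ± 1402 in NDKO. In 0 of 8 members were the groups apart, where 6.69% of all genes were without overlap and lower and 2.33% without overlap and higher.

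On CDAHFD the fitted log2FC was below 0 for 8 of 8 members in the libraries labelled TSP-1 null against wild type, and 0 of 8 were called, against 0.496% of all genes. In limma 4 of 8 had an unadjusted p under 0.05. The median log2FC of the members was −0.85, beside −0.10 over all genes. Mup21 had a log2FC of −1.38 (SE 0.40, limma FDR 0.0933), Mup20 of −0.76 (SE 0.23, FDR 0.104) and Mup17 of −1.39 (SE 0.49, FDR 0.159). For Mup16 it was −0.81 (FDR 0.228), for Mup3 −0.37 (FDR 0.323), for Mup19 −0.89 (FDR 0.348), for Mup7 −1.15 (FDR 0.476) and for Mup15 −0.68 (FDR 0.615). HFWT and HFKO overlapped for every member, where 4.13% of all genes were without overlap and lower and 0.847% without overlap and higher.

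Among the HFKO libraries the same mice were high or low for most members. Replicate 2 of HFKO was the highest of its group for 8 of 8 members, and replicate 4 the lowest for 6 of 8. The summed FPKM of HFKO averaged 2473 ± 923, 62.8% of the HFWT mean of 3936 ± 1067. Without replicate 2 the log2FC of the sum between genotypes moved from −0.72 to −0.90, and without replicate 4 to −0.49. Without replicate 2, Mup17 passed the threshold (log2FC −1.88, limma FDR 0.0382), the only member called with any 1 library left out. Hepatocyte markers summed to 65479 FPKM in replicate 2 and 69628 in replicate 4, and macrophage markers to 1236 and 867.

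The diet response of the members was not shown to differ between genotypes. In the test of diet by genotype interaction 0 of 8 members were called, against 0.647% of all genes, and 3 of 8 had an unadjusted p under 0.05. All 8 interaction terms were negative, with a median of −0.88 beside −0.03 over all genes, and lay between −1.31 for Mup16 and −0.14 for Mup3. For Mup16 limma gave an FDR of 0.188 and for Mup20, at −0.89, an FDR of 0.190. These signs are not stable: with a constant of 1 in place of 0.1 the terms of Mup17 and Mup19 became 0.03 and 0.02, and without replicate 4 of HFKO that of Mup3 became 0.07.

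**Figure D4:**
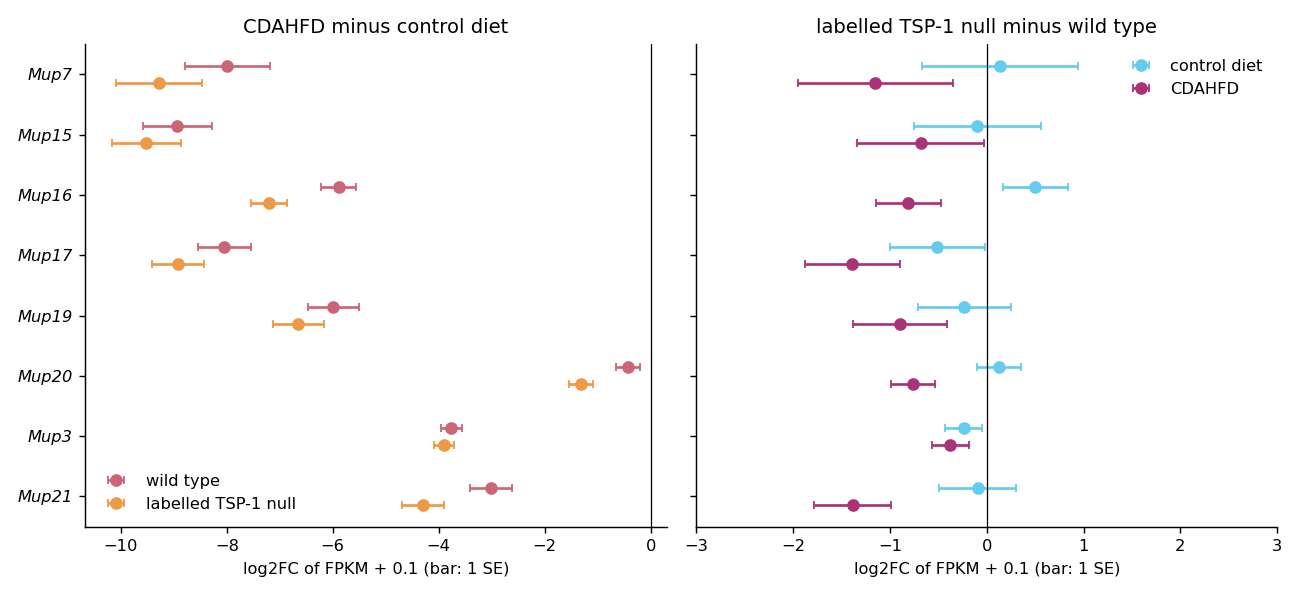
Points are log2FC of FPKM + 0.1 with bars of 1 SE from limma over 20 libraries, with CDAHFD minus control diet on the left and labelled TSP-1 null minus wild type on the right, on axes of different range. Diet values run from −9.52 to −0.43. All 8 genotype values on CDAHFD lie below 0, from −1.39 to −0.37, and those on the control diet lie on both sides of 0.

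Within groups, members varied together on CDAHFD more than on the control diet. Deviations of log2(FPKM + 0.1) from the group mean had Pearson r from 0.32 to 0.955 (median 0.754) over the 28 pairs of members in the 10 CDAHFD libraries. In the 10 control libraries r ran from −0.627 to 0.902 (median 0.0872). The pairs with the highest r on the control diet were Mup3 with Mup21 (0.902), Mup15 with Mup17 (0.875) and Mup15 with Mup16 (0.871). Mup20 and Mup17 had the lowest, at −0.627. The named pairs of highest r on the control diet lie within the sequence sets above, but Mup3 with Mup7, across sets, had 0.746. On that diet Mup19 did not vary with its own set, at −0.448 with Mup7, −0.219 with Mup15, −0.2 with Mup17 and 0.0304 with Mup16. On CDAHFD the highest r was for Mup7 with Mup17 (0.955), within the central set. Next came Mup3 with Mup20 (0.935) and Mup3 with Mup17 (0.932), across sets, and Mup19 had 0.899 with Mup17. The points share libraries, depth and, within the central set, sequence, and these values are descriptions without a test.

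Some genes outside the family were most like the summed members in their group means or in their variation within groups. By the distance between centred group means the 5 nearest of all tested genes were 2810007J24Rik (distance 0.278 on the log2 scale), Cyp2d9 (0.319), Serpina3k (0.334), Ces3b (0.371) and Lamb3 (0.426). Cyp2d9, a male-biased cytochrome P450, had mean FPKM of 894, 1013, 229 and 168 in NDWT, NDKO, HFWT and HFKO. Serpina3k, a secreted protease inhibitor of hepatocytes, had 5066, 4949, 1186 and 980. Both belong to families of close paralogs, so some of their reads may be assigned uncertainly. By the correlation of within-group deviations over 20 libraries the first 5 were Serpina3k (r 0.877), Slco1a1 (0.841), C6 (0.841), Slc15a5 (0.825) and Ces3a (0.774). This measure leaves out the group means. The diet log2FC in wild-type mice and in the others was −0.07 and −0.63 for C6, and −0.36 and −0.48 for Ces3a. Serpina3k was on both lists, and Slco1a1, an organic anion carrier, and C6, a complement component, are known as male-biased in mouse liver.

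Growth hormone signalling genes, a list that holds parts of the pathway together with genes it acts on, moved both ways with diet. Of 12 listed and tested genes, 5 rose and 2 fell in wild-type mice, against 44.1% and 4.62% of all genes. In those labelled TSP-1 null 4 rose and 3 fell, against 41.9% and 4% of all genes. Ghr, the growth hormone receptor, fell from 54.9 to 28.6 FPKM in wild-type mice (log2FC −0.95, FDR 1.56e-07) and from 39.7 to 23.7 in the others (log2FC −0.74), and Igfals, which encodes the acid-labile carrier subunit of circulating IGF1, fell in both (log2FC −0.95 and −1.03). Jak2, the kinase bound to the receptor, rose (log2FC 0.94 and 1.22), as did Socs1, a feedback inhibitor (1.04 and 1.40). Stat5a rose too (log2FC 0.65 and 0.90), whereas Stat5b, the main STAT5 of hepatocytes, had log2FC of 0.37 and 0.33, short of the fold needed for a call. With median of ratios scaling 0 of the 12 rose and 4 fell in wild-type mice, and 2 rose and 4 fell in the others. The shares of all genes come from the fit without that scaling. They were not counted with it, so rescaled counts, here and below, cannot be set against them. Between genotypes 0 of 12 were called on either diet.

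Other genes listed as higher in male than in female mouse liver were mostly lower on CDAHFD. Of 24 listed and tested, 20 fell and 1 rose in wild-type mice, with a median log2FC of −1.69 beside 0.53 over all genes. In those labelled TSP-1 null 18 fell and 0 rose, with a median of −1.44 beside 0.50. Over all genes 4.62% fell and 44.1% rose in wild-type mice, and 4% and 41.9% in the others. Hsd3b5, a male-specific steroid dehydrogenase, went from 78.3 to 2.20 FPKM in wild-type mice and from 27.6 to 0.345 in the others (log2FC −5.54 and −6.13). Elovl3, a fatty acid elongase, went from 198 to 13.4 and from 141 to 6.17 (log2FC −4.02 and −4.46), and Moxd1 had log2FC of −5.80 and −7.75. Ugt2b38 (log2FC −3.95 and −2.40) and Susd4 (−2.92 and −3.84) fell as well. The listed gene that rose in wild-type mice was Trim24 (log2FC 1.27), whose place on a male-biased list is doubtful. Under median of ratios scaling 22 fell and 1 rose in wild-type mice, and 23 fell and 0 rose in the others.

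Unlike the members, some genes of this list were called between genotypes. On the control diet 6 of 24 fell and 1 rose in the libraries labelled TSP-1 null, against 3.03% and 1.74% of all genes. Keg1 (log2FC −1.17, limma FDR 0.00743), Cyp4a12a (−1.13, FDR 0.00494) and Nudt7 (−0.85, FDR 0.0203) fell there and Trim24 rose (0.92, FDR 0.00213). On CDAHFD 2 fell and 0 rose, against 0.33% and 0.165% of all genes. These were Cyp4a12a (log2FC −1.75, limma FDR 4.76e-04) and its near copy Cyp4a12b (−1.25, FDR 4.73e-04), fatty acid hydroxylases between which reads may be split uncertainly. Without replicate 2 of HFKO the count on CDAHFD was 5.

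Genes known to be higher in females gave calls in both directions. Of 22 listed, 12 passed the filter on low values, and 6 of them rose and 4 fell in wild-type mice, while 7 rose and 5 fell in the others. Over all genes 44.1% rose and 4.62% fell in wild-type mice, and 41.9% and 4% in the others. The share that rose in wild-type mice was thus near that of all genes, and the shares that fell were above theirs. Median of ratios scaling gave 5 that rose and 4 that fell, and 4 and 5. Cyp2a4 rose from 0.0582 to 6.52 FPKM in wild-type mice and from 0.132 to 17.6 in those labelled TSP-1 null (log2FC 5.24 and 5.84), and Cyp2b9 from 0.185 to 8.17 and from 0.161 to 14.4 (log2FC 4.49 and 5.67). Ntrk2 rose in both (log2FC 3.80 and 3.82), as did Prom1 (3.38 and 3.31), which is also a marker of bile duct cells. Cyp17a1 (log2FC −2.60 and −2.71), Cyp2c40 (−2.54 and −2.48), Acot3 (−2.51 and −1.67) and Cyp2c69 (−2.14 and −2.93) fell in both. On the control diet 3 rose in the libraries labelled TSP-1 null, namely Cux2 (log2FC 2.49), Cyp17a1 (1.48) and Fmo2 (0.94), and on CDAHFD 0 of 12 were called.

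For transcription factors and cofactors known to act on Mup or other hepatocyte genes, the number of calls depended on the scaling. Of 18 listed and tested, 1 rose and 1 fell with diet in wild-type mice and 2 rose and 1 fell in the others. Over all genes 44.1% rose and 4.62% fell in wild-type mice, and 41.9% and 4% in the others. The shares that fell were thus near those of all genes. Ppara, the fatty acid sensor of hepatocytes, fell in both (log2FC −1.22 and −0.65). Ppargc1a rose in wild-type mice (log2FC 0.81), and Nr0b2 and Dbp rose in those labelled TSP-1 null (1.44 and 1.42). With median of ratios scaling 0 rose and 8 fell in wild-type mice, and 1 rose and 9 fell in the others. The shares above do not apply to these rescaled counts. Zhx2, a transcription factor known to act on Mup genes, had log2FC of −0.05 and 0.33 and Hnf4a of −0.14 and −0.42. None of these passed both thresholds for a call. Between genotypes Ppargc1a (log2FC 1.29) and Foxa3 (0.70) rose on the control diet, where the count with median of ratios scaling was 4. On CDAHFD 0 of 18 were called. Over all genes 1.74% rose on the control diet and 0.496% were called on CDAHFD.

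Markers of other liver cell types moved with diet beside the members. In wild-type mice 11 of 12 stellate cell, 11 of 12 lymphocyte, 9 of 13 macrophage, 6 of 7 cholangiocyte and 2 of 10 endothelial markers tested rose, where 44.1% of all genes did, and the endothelial share was below that. In the same mice 5 of 16 hepatocyte, 2 macrophage and 1 stellate cell markers fell, where 4.62% of all genes did. In those labelled TSP-1 null 10 stellate cell, 11 lymphocyte, 9 macrophage, 7 cholangiocyte, 4 endothelial and 1 hepatocyte markers rose, beside 41.9% of all genes. In these mice 4 hepatocyte, 2 macrophage and 1 stellate cell markers fell, beside 4% of all genes. With median of ratios scaling the counts that rose in wild-type mice were 8 stellate cell, 10 lymphocyte, 9 macrophage, 5 cholangiocyte and 0 endothelial markers. Those that fell were 13 hepatocyte, 4 endothelial, 3 macrophage and 1 stellate cell markers. In the mice labelled TSP-1 null 7 stellate cell, 6 lymphocyte, 9 macrophage, 5 cholangiocyte and 1 endothelial markers rose with that scaling. There 10 hepatocyte, 2 macrophage and 1 stellate cell markers fell. Summed cholangiocyte markers were 23.96 to 33.3 FPKM in NDWT and 305 to 507 in HFWT, and summed hepatocyte markers 61710 to 66170 and 44900 to 61440. In NDKO and HFKO the hepatocyte sums were 67900 to 72090 and 56050 to 69630. The part of cell composition in the diet differences was not tested.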

How the data were processed

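The authors sequenced poly(A) RNA from liver (right lateral lobe in the methods, right medial lobe in the series text) with a strand-specific kit and processed it with QuickRNASeq. The submitters' notes name STAR 2.5.2, featureCounts and Subread 1.5.1, and a human build. The deposited FPKM table has mouse coordinates: 99.82% of 37607 gene identifiers overlap the same gene in GENCODE M21 (GRCm38). Deposited values are FPKM per gene, not normalized further between libraries. Fragments were recovered from FPKM, gene length and library totals of 15641545 to 23276325 (at least 99.99% of values within 0.1 of a whole number). A floor of 3 fragments covers counting error only, since no molecular identifiers are named.

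Groups follow the labels. limma 3.58.1 (R 4.3.3; lmFit, eBayes with trend, 20 libraries in 1 fit) was run on log2(FPKM + 0.1) for the 14524 genes that exceeded 0.5 FPKM in 5 or more libraries, with two-sided Benjamini-Hochberg FDR over all of them within each comparison; all 8 members passed this filter. Calls need FDR under 0.05 and absolute log2FC above 0.58. Shares of all genes called are from this fit only. Scripts were tested on simulated data. Python 3.11.15, pandas 2.3.3, numpy 2.4.6, Biopython 1.88 and matplotlib 3.10.9 served for the rest.

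Members, lists and tests were chosen with earlier results of these data known. Named were all members, other rows named Mup with more than 3 fragments in a library, the 5 genes nearest by each likeness measure, and at most 4 called genes of a list and comparison with the largest absolute log2FC. Stat5b, Zhx2, Hnf4a, Rbp4, C8g and, in the diet comparison, Trim24, Cyp17a1, Cyp2c40, Acot3 and Cyp2c69 were chosen after their values were seen. Lists comprised growth hormone signalling, male-biased, female-biased, regulator, lipocalin and neighbouring genes, and markers of 6 cell types. Promoters of Mup16 and Mup20 were not analysed here. Alternatives changed the pseudocount, filter, scaling, eBayes settings, samples fitted, fold threshold and block, and left out each library. The sum without Mup20, the TATATAA search, the ratios of means without single libraries and the rescaled counts of marker and neighbouring genes were added after seeing the data.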

Additional observations from a re-analysis of the deposited data

Results flagged for a closer look

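Mup16 in replicate 2 of HFKO, at 0.739 FPKM, stood apart from the other 4 libraries of its group, which lay between 0.146 and 0.262. The gap was 0.804 of the group's range, above Dixon's critical value of 0.71 for 5 samples. The library held 12 fragments of Mup16 and the others 3 to 6, and it was the highest of HFKO for 8 of 8 members. It was the only one of 36 sets of 5 values, for 8 members and their sum in 4 groups, to pass this limit. Chance passes about 1 in 20 such sets.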

How the results depend on the processing

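The count of members called between genotypes or in the interaction was 0 in every alternative except 1: without replicate 2 of HFKO it was 1 on CDAHFD (Mup17). Leaving out single libraries therefore gave 0 to 1 there, and 0 in the other tests. With a replicate block the count was 0 in all 3 tests. Replicate numbers do not pair the mice: over 30 pairs of same-numbered libraries r ran from −0.133 to 0.0812, 0 were over 0.1, and 6 of 20 libraries correlated best with their own number. Median of ratios scaling moved the log2FC of the summed members with diet from −1.81 to −2.37 in wild-type mice and from −2.49 to −3.02 in the others, and leaving out Mup20 moved it to −4.14 and −4.45. The small genotype value on the control diet, −0.043, turned to 0.033 with that scaling and to 0.0062 without replicate 1 of NDKO, the range over single libraries left out being −0.094 to 0.0062. On CDAHFD that range was −0.90 to −0.49, and for diet it was −1.94 to −1.72 and −2.67 to −2.26. No other summed value moved by more than 1 SD. Of 1312 alternative values for single members, 23 moved by over 1 SD (for genotype and interaction, counted only where the sign changed) and 1 passed the threshold. Depth limits Mup15, Mup16, Mup17 and Mup19 on CDAHFD, where a library held 29 fragments of them or fewer.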

Other observations

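Other lipocalins gave calls in both directions with diet. Of 12 listed genes 10 were tested, and in wild-type mice 4 rose and 2 (C8g and Fabp1) fell, with a median log2FC of −0.01 beside 0.53 over all genes. In the mice labelled TSP-1 null 4 rose and 1 fell. The shares that rose were near those of all genes, 44.1% and 41.9%, beside 4.62% and 4% that fell. With median of ratios scaling the counts were 4 and 5 in wild-type mice, and 2 and 5 in the others. Lcn2, an iron-scavenging protein of the acute phase, rose from 3.97 to 108 FPKM in wild-type mice and from 2.09 to 87.1 in the others (log2FC 4.87 and 5.34). Orm2, an acute phase glycoprotein, rose as well (log2FC 4.13 and 3.44), as did Ptgds (3.56 and 1.20) and Orm3 (2.98 and 1.20). Rbp4, the retinol carrier, was the gene that fell in the mice labelled TSP-1 null (log2FC −0.62) and had −0.45 in wild-type mice. Fabp1, a fatty acid binding protein of the wider family, was the 1 gene of the list called in the interaction (1.17, limma FDR 0.0257). It averaged 6597 and 3513 FPKM in NDWT and NDKO, and 2398 and 2747 in HFWT and HFKO.

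Genes beside the cluster also gave calls in both directions. Within 1 Mb of the outermost members on chromosome 4 the table holds 56 genes not named Mup, of which 20 were tested. With diet 6 rose and 2 fell in wild-type mice and 5 rose and 3 fell in the others, against 44.1% and 4.62%, and 41.9% and 4% of all genes. The median log2FC was 0.33 and 0.30. With median of ratios scaling 2 rose and 6 fell, and 4 rose and 5 fell. Bspry rose in both (log2FC 3.13 and 3.00), as did Zfp618 (1.59 and 1.17), and Hsdl2 (−1.18 and −0.69) and the unnamed gene model Gm13775 (−1.68 and −3.35) fell. Between genotypes 0 of 20 were called on either diet.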
